A study of Arabidopsis thaliana with 9 samples.

Results

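Cytochrome P450 genes were followed in the roots of 5 d Arabidopsis thaliana seedlings after 24 h at low atmospheric pressure, with or without an oxygen supplement. A probe set of the Affymetrix ATH1 array was included if its annotation gave 1 gene and the symbol had the form of a P450 name, CYP followed by a family number, a subfamily letter and a gene number. This rule took 22 probe sets, 1 for each of 22 genes, out of 22810 probe sets on the array and 13513 that named 1 gene. The TAIR10.1 gene table lists 225 genes with such a symbol, so the 22 genes are 9.78% of the named P450 genes. In the annotation used here 8794 probe sets were not listed and 503 named several genes. Of the 22 genes, 18 belong to the CYP71B subfamily, and CYP51G2, CYP78A9, CYP79A2 and CYP84A4 each represent another family.

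Every plant was of ecotype Wassilewskija (WS), light grown on solid medium, and CO2 was kept constant (0.05 kPa) throughout. The 3 atmospheres were 50 kPa, 50 kPa/NormOx and 97 kPa, the last being the ambient pressure at the site of the chambers. At 50 kPa, oxygen fell with the total pressure. At 50 kPa/NormOx, oxygen at the same total pressure was raised to a partial pressure of 21 kPa. Each atmosphere was run in 3 chambers, and 1 tube of about 12 plants per chamber was dissected for root RNA, giving 3 arrays per group. A replicate is therefore the pooled roots of 1 chamber, and the roots are a mixture of cell types in which fewer cells of a type and less RNA per cell cannot be told apart.

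P450s are heme enzymes that use oxygen as a substrate. They insert 1 of its atoms into an organic molecule and take electrons from NADPH, in most plant P450s through a reductase bound to the endoplasmic reticulum. In plants they serve the synthesis of sterols, hormones, lignin, suberin and many defence compounds. The CYP71 family is among the largest of them, and in Arabidopsis many of its B subfamily genes stand beside each other on the chromosome. In roots, related P450s make and break down indolic compounds derived from tryptophan.

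The deposited value of a probe set is a linear MAS5 signal, in arbitrary units scaled alike on every array. Values of different probe sets are not set against each other, since probes differ in how brightly they bind. Tests were made with limma on log2 signals of all 9 arrays, after the dimmest 30% of nuclear probe sets had been left out, and p-values were adjusted over the 15831 probe sets that remained. The floor left by that filter was a geometric mean signal of 66.6 over the 9 arrays. Only 8 of the 22 genes lay above it, namely CYP71B6, CYP71B26, CYP71B28, CYP71B29, CYP71B34, CYP71B37, CYP78A9 and CYP84A4. The nearest genes to the floor had geometric means of 76.5 (CYP71B29) and 76.8 (CYP71B26) above it, and 64.2 (CYP51G2) and 48.7 (CYP71B22) below it. A geometric mean is pulled down by single low arrays more than the ordinary means given for groups. The other 14 genes were fitted with the filter removed, over 22616 probe sets, and their values are given as such. No detection calls were used, so a dim signal cannot be told from an absent transcript.

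Median signals over all probe sets ran from 196 to 217 among the arrays. Arrays of 1 group correlated at 0.944 to 0.965 across tested probe sets, and arrays of different groups at 0.935 to 0.960. Replicate 2 of 50 kPa/NormOx stood apart, correlating at 0.954 to 0.960 with the 50 kPa arrays and at 0.944 to 0.946 with its own group. Of the root markers, EXPA7 of root hairs and PYK10, a root beta-glucosidase, were both above the floor (2 of 12 entries were named), with a summed signal of 16078 to 21838 at 50 kPa, 17833 to 20581 at 50 kPa/NormOx and 18596 to 19256 at 97 kPa. Of the shoot markers, 3 of 16 entries were named, and all 3 (LHCB4.1, RCA and STOMAGEN) were above the floor. Their summed signal was 7982 to 13180 at 50 kPa and 5690 to 7968 at 97 kPa. At 50 kPa/NormOx it was 4570, 11732 and 6435 in replicates 1 to 3, highest in the replicate 2 that stood apart. The mean signals of these shoot markers thus exceeded the floor in the root samples of all groups. The lowest sum at 50 kPa (7982) lay just above the highest at 97 kPa (7968), and RCA by itself overlapped between these groups. Such sums are weighted to the brighter probe sets, PYK10 among the root markers and LHCB4.1 and RCA among the shoot markers.

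No P450 gene was called in any comparison at an adjusted p under 0.05. In limma, 0 of 8 tested genes were called at 50 kPa against 97 kPa, where 0.0948% of tested probe sets were called. The count was also 0 of 8 at 50 kPa/NormOx against 97 kPa (0.392% of tested probe sets) and at 50 kPa against 50 kPa/NormOx (0.0821%). With the filter removed it was 0 of 22 in each, beside 0.0531%, 0.19% and 0.0486% of the unfiltered probe sets. At an unadjusted p under 0.05, 0 of the 8 tested genes passed in both comparisons with 97 kPa (9.38% and 12.7% of tested probe sets), and 2 passed between 50 kPa and 50 kPa/NormOx (9.05%), namely CYP71B6 and CYP71B26. By the threshold of the study's methods, an unadjusted p under 0.01 together with at least a 2-fold change, 0 of the 8 passed in every comparison, beside 0.638%, 0.903% and 0.436% of tested probe sets.

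Of the tested genes, CYP71B6 was the 1 with groups that did not overlap. In Arabidopsis this enzyme converts indole-3-acetonitrile, an intermediate of indolic defence compounds, to indole-3-carbaldehyde. Its signals were 494, 431 and 453 at 50 kPa, 249.5, 378 and 357 at 50 kPa/NormOx, and 389.6, 365 and 351 at 97 kPa. All 3 arrays at 50 kPa therefore read higher than every other array, whereas the other groups overlapped. The log2 difference of 50 kPa against 50 kPa/NormOx was 0.51 ± 0.19 (SE), a ratio of 1.42 with a 95% interval of 1.08 to 1.87 (limma, adjusted p = 0.467). Between 50 kPa and 97 kPa it was 0.32 ± 0.19 (interval of the ratio 0.943 to 1.64, adjusted p = 0.631), and between 50 kPa/NormOx and 97 kPa it was -0.19 ± 0.19 (0.664 to 1.16, adjusted p = 0.731). Neither the comparison with 50 kPa/NormOx nor that with 97 kPa passed over all probe sets. The adjusted p for 50 kPa against 50 kPa/NormOx ran from 0.199 to 0.746 over 16 alternatives. The difference was 0.32 without 50 kPa/NormOx replicate 1, the lowest array, and 0.62 without the replicate 2 that stood apart.

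CYP71B6 was the 1 tested P450 gene with groups that did not overlap at 50 kPa against 97 kPa (16.0% of tested probe sets did not overlap there) and at 50 kPa against 50 kPa/NormOx (12.5%). No tested P450 gene had separate groups at 50 kPa/NormOx against 97 kPa, where 18.5% of tested probe sets did. Shoot and plastid transcripts differed in part between the same arrays as CYP71B6. Between 50 kPa and 50 kPa/NormOx their log2 differences were 0.72 ± 0.23 (SE) for LHCB4.1, 0.27 ± 0.34 for RCA and 0.44 ± 0.34 for STOMAGEN, with overlap of the arrays for each. Between 50 kPa and 97 kPa they were 0.46 ± 0.23, 0.50 ± 0.34 and 1.24 ± 0.34, and the arrays of LHCB4.1 and STOMAGEN at 50 kPa were all above those at 97 kPa. None of the 3 was called, and STOMAGEN met the methods' threshold at 50 kPa against 97 kPa (limma, adjusted p = 0.267). The median signal of 77 probe sets assigned to the plastid genome was 1867, 2300 and 2173 at 50 kPa, 1348, 1501 and 1428 at 50 kPa/NormOx, and 1797, 1971 and 1741 at 97 kPa, so that the 50 kPa arrays were all above those at 50 kPa/NormOx and overlapped with those at 97 kPa. The part of the shoot and plastid transcripts in the CYP71B6 values was not tested.

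**Figure D1:**
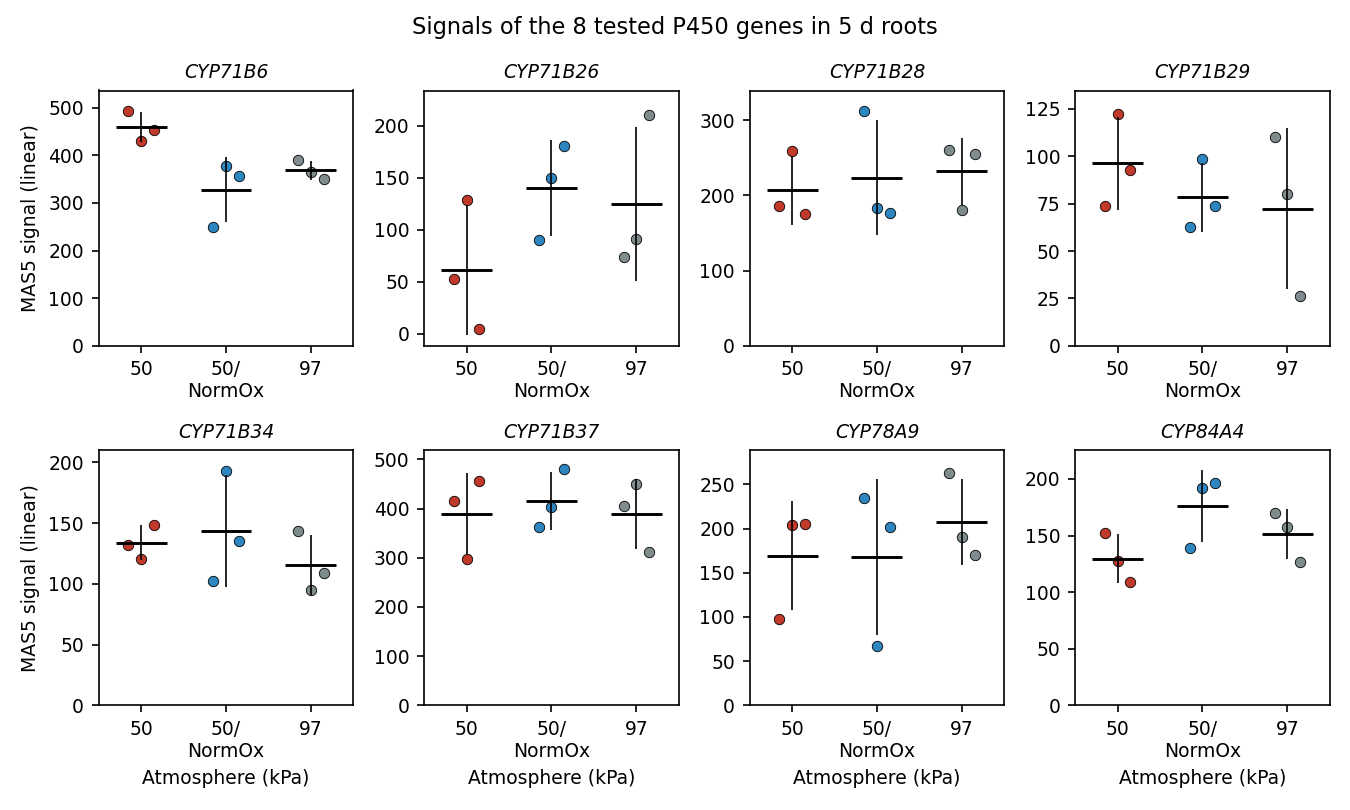
Linear MAS5 signal (y axes, each starting at or just under 0 and scaled for its own gene) of the 8 tested P450 genes in roots at 50 kPa, 50 kPa/NormOx and 97 kPa (x axes). Points are the 3 arrays of a group, horizontal bars their mean and vertical bars 1 SD; in the panel of CYP71B6 the 3 arrays at 50 kPa (431 to 494) lie above all others (249.5 to 389.6), and in the other 7 panels the groups overlap.

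CYP71B26 had the widest spread of the tested genes, and its values turned on single arrays. Its signals were 52.2, 128 and 4.04 at 50 kPa, 89.8, 150 and 181 at 50 kPa/NormOx, and 73.9, 91.2 and 210.1 at 97 kPa. Replicate 3 at 50 kPa read far below the floor, while replicate 2 of the same group lay within the range of the other groups, so that the groups overlapped. The log2 difference was -2.16 ± 0.91 (SE) at 50 kPa against 50 kPa/NormOx (limma, adjusted p = 0.507) and -1.90 ± 0.91 against 97 kPa (adjusted p = 0.540). Without 50 kPa replicate 3 these values were -0.72 and -0.46, and without 50 kPa replicate 2 they were -3.21 and -2.95. Between 50 kPa/NormOx and 97 kPa the difference was 0.26 ± 0.91 (adjusted p = 0.941).

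CYP71B34 and CYP71B37 lie in the same gene cluster as CYP71B26 but were steady between arrays. CYP71B37 had 415, 297.5 and 456 at 50 kPa, 363, 404 and 480.4 at 50 kPa/NormOx, and 404, 451 and 312 at 97 kPa. Every group spanned nearly the same range, and the ratio of 50 kPa to 97 kPa was 0.997 with a 95% interval of 0.732 to 1.36 (limma, adjusted p = 0.998). CYP71B34 ranged from 94.8 to 193 over the 9 arrays, with ratios of 1.17 at 50 kPa against 97 kPa (interval 0.728 to 1.88) and 1.22 at 50 kPa/NormOx against 97 kPa (0.758 to 1.96).

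On chromosome 1, CYP71B28 ranged from 175 to 312 and CYP71B29 from 26.5 to 122 over the 9 arrays, and the groups overlapped for both. The log2 difference of CYP71B28 lay between -0.17 and -0.08 in the 3 comparisons, with an SE of 0.27. That of CYP71B29 was 0.61 ± 0.54 (SE) at 50 kPa against 97 kPa (limma, adjusted p = 0.768) and became 0.0015 without 97 kPa replicate 3, the array at 26.5.

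The tested genes of other families are a regulator of organ growth and an enzyme of phenolic metabolism. CYP78A9, known for promoting the growth of fruits and seeds, had 98.1, 204 and 205 at 50 kPa, 234, 67.3 and 201 at 50 kPa/NormOx, and 263, 191 and 170 at 97 kPa. The 2 lowest values came from 50 kPa replicate 1 and from the 50 kPa/NormOx replicate that stood apart. Its log2 difference at 50 kPa/NormOx against 97 kPa was -0.48 ± 0.42 (SE; limma, adjusted p = 0.692) and 0.09 without that replicate. CYP84A4 takes part in the synthesis of arabidopyrones, phenylpropanoid-derived alpha-pyrones. It had 152, 128 and 109 at 50 kPa, 139, 192 and 196 at 50 kPa/NormOx, and 170.2, 157 and 127 at 97 kPa, with a log2 difference of -0.44 ± 0.28 at 50 kPa against 50 kPa/NormOx (adjusted p = 0.672) and overlap between all groups.

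At 50 kPa against 97 kPa the 95% interval lay within a 2-fold change in either direction for 5 of the 8 tested genes (CYP71B6, CYP71B28, CYP71B34, CYP71B37 and CYP84A4). The same 5 genes met this at 50 kPa/NormOx against 97 kPa, and 4 of them, all but CYP84A4, at 50 kPa against 50 kPa/NormOx. The intervals of CYP71B26, CYP71B29 and CYP78A9 reached past 2-fold in all 3 comparisons, as did those of the 14 genes under the floor. The replicate SD of the log2 signal, pooled over groups, had a median of 0.346 for the 8 tested P450 genes and 1.39 for the 14 below the floor, beside 0.262 for all tested probe sets and 1.31 for all those below the floor.

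**Figure D2:**
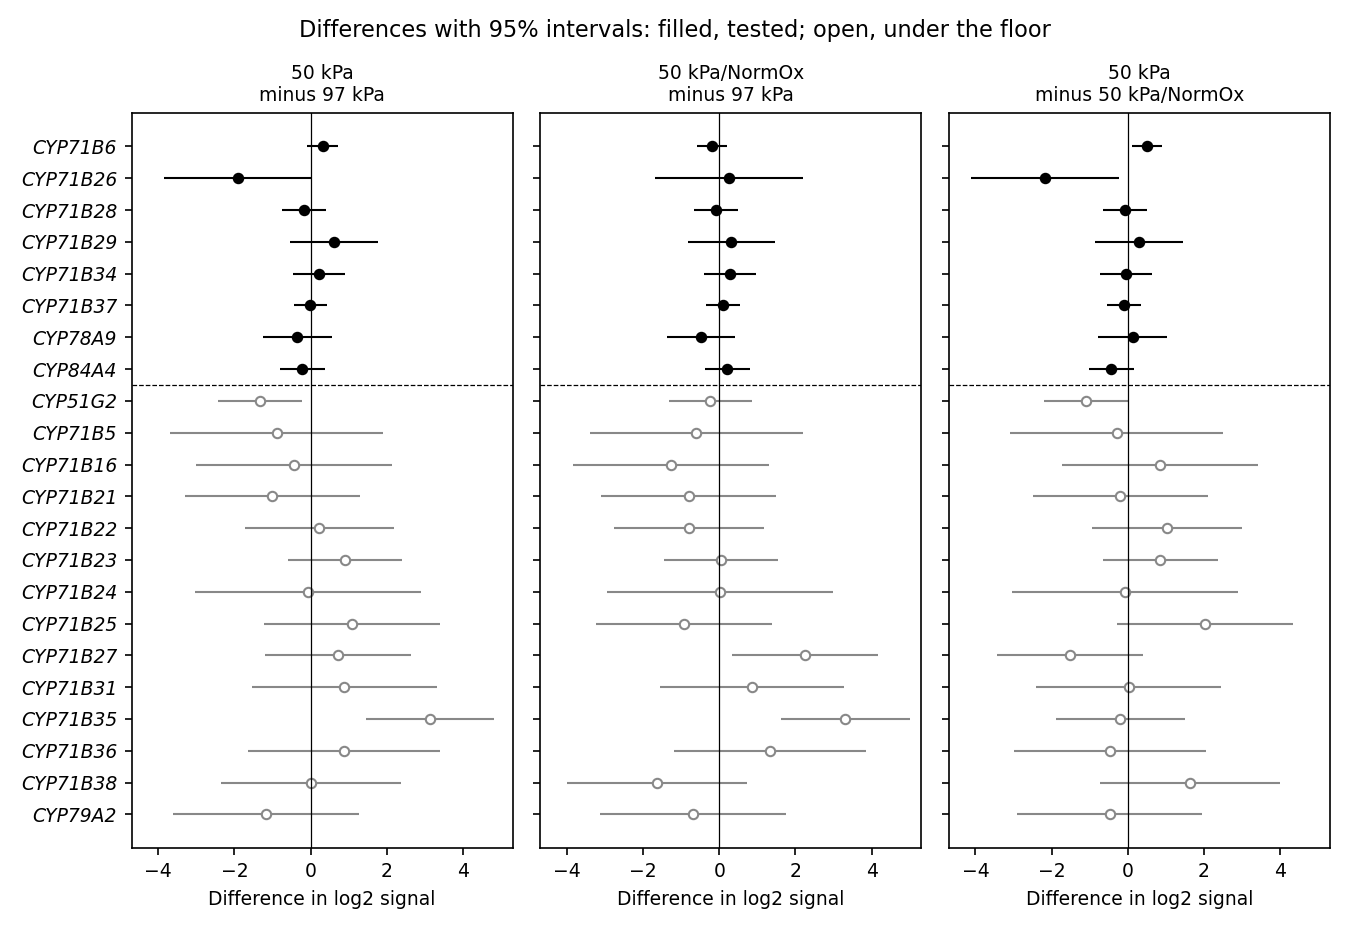
Difference in log2 signal (x axes) of the 22 P450 genes (y axis) for 50 kPa minus 97 kPa, 50 kPa/NormOx minus 97 kPa and 50 kPa minus 50 kPa/NormOx, with bars for the 95% interval of the limma fit. Filled points above the dashed line are the 8 tested genes and open points below it the 14 under the floor, fitted without the filter; most intervals cover 0, the SE behind them runs from 0.188 to 0.912 for tested genes and from 0.512 to 1.39 for dim genes, and CYP71B35 lies farthest to the right in the 2 comparisons with 97 kPa.

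**Figure D3:**
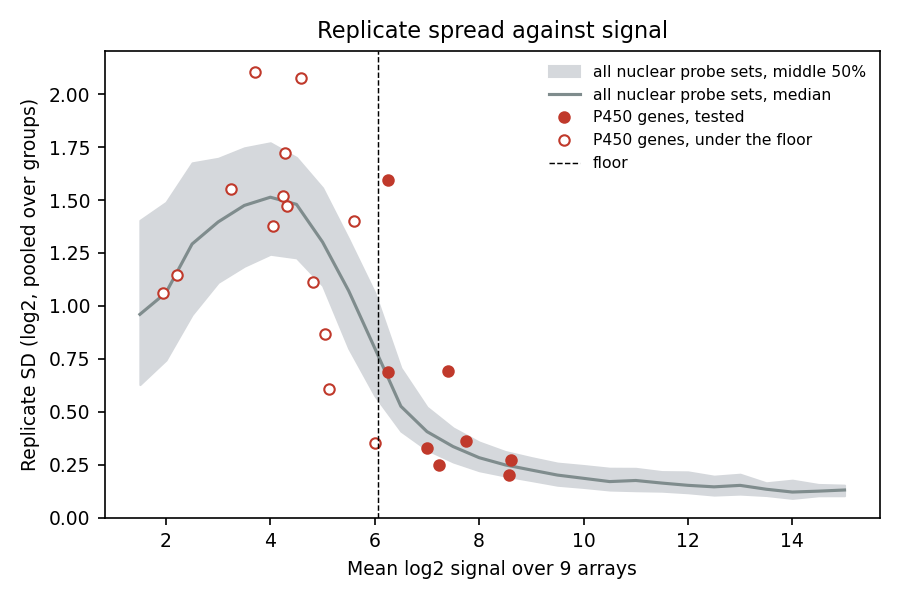
Replicate SD of log2 signal, pooled over the 3 groups (y axis), against the mean log2 signal over 9 arrays (x axis). The grey line and band give the median and the middle 50% of all nuclear probe sets in steps of brightness; P450 genes below the floor (open) have a median SD of 1.39 and tested ones (filled) of 0.346, and CYP71B26 is the tested gene with an SD of 1.59.

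Among the 14 genes under the floor, CYP71B35 showed the widest separation between low and ambient pressure. Its signals were 35.4, 103 and 74.1 at 50 kPa, 98.0, 63.5 and 64.8 at 50 kPa/NormOx, and 9.54, 2.89 and 14.9 at 97 kPa. All 6 arrays at low pressure read higher than the 3 arrays at 97 kPa, and some of them exceeded the floor, while the 97 kPa arrays lay far under it. The log2 difference was 3.12 ± 0.79 (SE) at 50 kPa against 97 kPa (limma without the filter, adjusted p = 0.277) and 3.31 ± 0.79 at 50 kPa/NormOx against 97 kPa (adjusted p = 0.126). The 2 comparisons share their 97 kPa arrays. At 50 kPa against 50 kPa/NormOx it was -0.19 ± 0.79. The shoot marker STOMAGEN was higher on average at both low pressures, with 744 ± 220.0 (SD, n = 3) at 50 kPa, 595 ± 329 at 50 kPa/NormOx and 309 ± 59.2 at 97 kPa, and its log2 differences from 97 kPa were 1.24 ± 0.34 (SE) and 0.80 ± 0.34, the second with overlapping arrays. Neither STOMAGEN difference was called (limma, adjusted p = 0.267 and 0.338). The log2 differences of the other shoot markers from 97 kPa were 0.46 ± 0.23 (LHCB4.1) and 0.50 ± 0.34 (RCA) at 50 kPa. At 50 kPa/NormOx they were -0.26 ± 0.23 and 0.23 ± 0.34, and the median plastid signals there were all below those at 97 kPa. The part of shoot transcripts in the CYP71B35 values was not tested. CYP71B35 met the methods' threshold in both comparisons with 97 kPa, the 1 P450 gene of 22 to do so, beside 0.707% and 0.946% of the unfiltered probe sets. At 50 kPa against 50 kPa/NormOx 0 of 22 did, beside 0.615%.

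The size of the CYP71B35 difference depends on how such faint signals are handled. With 32 added to each signal before taking logs, the ratios were 2.42 (adjusted p = 0.314) at 50 kPa against 97 kPa and 2.61 (adjusted p = 0.137) at 50 kPa/NormOx against 97 kPa. Over 15 alternatives each, the limma adjusted p ran from 0.159 to 0.531 and from 0.0945 to 0.348. The arrays stayed apart in all of them, but only quantile normalization could have made them overlap. The difference at 50 kPa against 97 kPa was 2.44 without 97 kPa replicate 2, the faintest array.

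CYP51G2 had lower signals at 50 kPa. It is a relative of CYP51G1, the sterol 14-demethylase of Arabidopsis, and is listed in TAIR10.1 as a transcribed pseudogene. Its signals were 26.9, 33.9 and 53.7 at 50 kPa, 72.8, 67.6 and 97.9 at 50 kPa/NormOx, and 107, 85.3 and 86.0 at 97 kPa. The 3 arrays at 50 kPa were all below the other 6, which overlapped. The log2 difference was -1.33 ± 0.51 (SE) at 50 kPa against 97 kPa (limma without the filter, adjusted p = 0.534) and -1.10 ± 0.51 at 50 kPa against 50 kPa/NormOx (adjusted p = 0.658). None of the 15 alternatives gave a call in either comparison. The groups stayed separate in all of them, but only quantile normalization could have made them overlap.

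CYP71B27, also listed as a transcribed pseudogene, had 7.20, 27.8 and 64.7 at 50 kPa, 70.7, 59.9 and 73.1 at 50 kPa/NormOx, and 12.9, 31.2 and 7.14 at 97 kPa. The 50 kPa/NormOx arrays read higher than the 97 kPa arrays, with a log2 difference of 2.25 ± 0.89 (SE; limma without the filter, adjusted p = 0.400). The 50 kPa arrays spread over the ranges of both other groups, including an array at 64.7. CYP71B21 had 7.47, 17.0 and 15.9 at 50 kPa, 2.70, 20.2 and 55.6 at 50 kPa/NormOx, and 38.0, 17.1 and 24.9 at 97 kPa. Its highest array at 50 kPa (17.0) lay just under the lowest at 97 kPa (17.1). These groups stayed apart in 14 of 15 alternatives and overlapped after quantile normalization. The ratio of 50 kPa to 97 kPa was 0.499 with a 95% interval of 0.102 to 2.44 (limma without the filter, adjusted p = 0.854).

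Counted over all 22 genes without the filter, arrays did not overlap for 4 at 50 kPa against 97 kPa (14.5% of unfiltered probe sets), 2 of them higher at 50 kPa (CYP71B6 and CYP71B35, beside 5.43%) and 2 lower (CYP51G2 and CYP71B21, beside 9.04%). They did not overlap for 2 at 50 kPa/NormOx against 97 kPa (16.0%), both higher at 50 kPa/NormOx (CYP71B27 and CYP71B35, beside 7.23%), and for 2 at 50 kPa against 50 kPa/NormOx (11.8%), 1 higher (CYP71B6, beside 4.47%) and 1 lower (CYP51G2, beside 7.32%). With 3 arrays against 3, an exact permutation test of a single gene cannot give a two-sided p below 0.1.

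**Figure D4:**
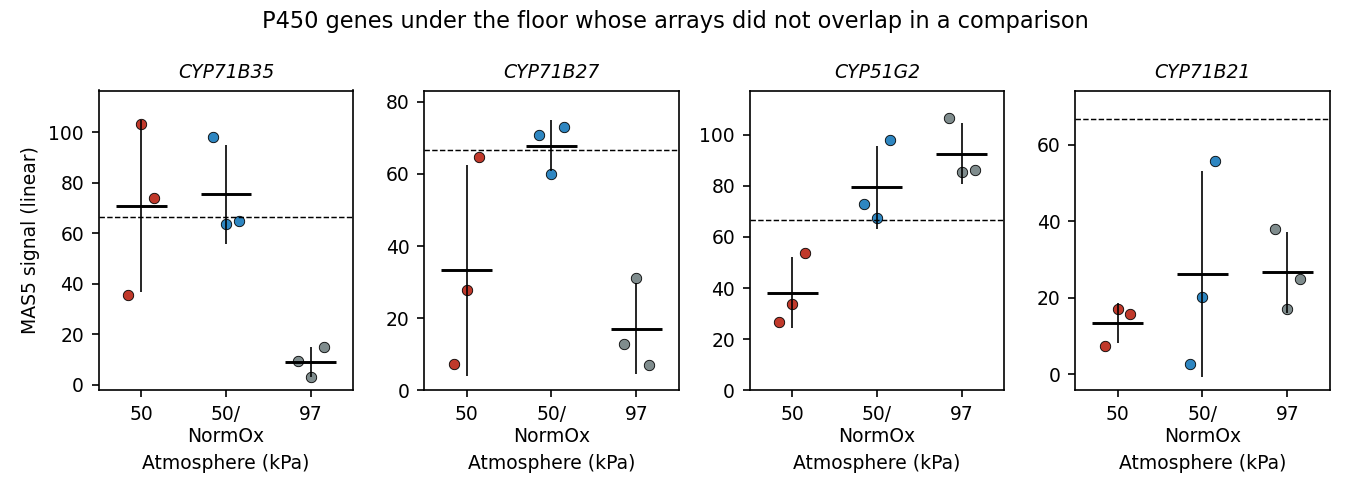
Linear MAS5 signal (y axes, scaled for each gene) of the 4 P450 genes under the floor whose arrays did not overlap in at least 1 comparison, at 50 kPa, 50 kPa/NormOx and 97 kPa (x axes). Points are arrays, horizontal bars means, vertical bars 1 SD and dashed lines the floor of 66.6; CYP71B35 has 35.4 to 103 at both low pressures and 2.89 to 14.9 at 97 kPa, and CYP51G2 has 26.9 to 53.7 at 50 kPa and 67.6 to 107 elsewhere.

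The remaining 10 genes below the floor gave no group that stood apart. CYP79A2, which converts phenylalanine to its aldoxime for benzyl glucosinolates, read 3.06 to 3.34 at 50 kPa, 2.92 to 9.63 at 50 kPa/NormOx and 2.04 to 22.0 at 97 kPa. CYP71B31, an enzyme of linalool oxidation in flowers, ranged from 1.67 to 14.7 over the 9 arrays. CYP71B25 had 33.2, 43.8 and 46.1 at 50 kPa and 40.8, 2.18 and 11.4 at 50 kPa/NormOx, a log2 difference of 2.02 ± 1.08 (SE; limma without the filter, adjusted p = 0.696) that was 0.92 without 50 kPa/NormOx replicate 2. CYP71B38 read 68.3 in that same replicate and 2.70 and 3.90 in the other 50 kPa/NormOx arrays. CYP71B5, CYP71B16, CYP71B22, CYP71B23, CYP71B24 and CYP71B36 varied by 4.99-fold (CYP71B23) to 57.6-fold (CYP71B24) between their lowest and highest arrays, without a group apart.

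By family, the values were as follows. In the CYP71 family the 6 tested genes had a median log2 difference of 0.11 at 50 kPa against 97 kPa, 0.18 at 50 kPa/NormOx against 97 kPa and -0.07 at 50 kPa against 50 kPa/NormOx. Over all 8 tested P450 genes the medians were -0.09, 0.16 and -0.07, beside -0.04, -0.02 and -0.02 over all tested probe sets. With each array left out they ran from -0.12 to -0.02, from -0.03 to 0.28 and from -0.16 to -0.02. Of the 8 tested genes, 3 lay above 0 and 5 below at 50 kPa against 97 kPa and at 50 kPa against 50 kPa/NormOx. At 50 kPa/NormOx against 97 kPa, 5 lay above and 3 below. Of the 15831 tested probe sets, 6840 lay above 0 at 50 kPa against 97 kPa, 7420 at 50 kPa/NormOx against 97 kPa and 7555 at 50 kPa against 50 kPa/NormOx. Over all 22 genes without the filter, 11 lay above 0 and 11 below in each comparison with 97 kPa, with medians of 0.001 at 50 kPa and -0.037 at 50 kPa/NormOx, and 9 lay above and 13 below at 50 kPa against 50 kPa/NormOx, with a median of -0.08. Over all 22616 unfiltered probe sets the medians were -0.06, -0.02 and -0.03, with 9708, 10713 and 10578 above 0.

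Most of the CYP71B genes are neighbours. A run of 11 CYP71B genes lies on chromosome 3 between loci AT3G26150 and AT3G26330, and 3 of them were tested (CYP71B26, CYP71B34 and CYP71B37). Without the filter, the run's log2 differences at 50 kPa against 97 kPa extended from -1.90 (CYP71B26) to 3.12 (CYP71B35), with 6 above 0 and 5 below. CYP71B34, CYP71B35, CYP71B36 and CYP71B37 occupy successive locus numbers, from AT3G26300 to AT3G26330, and their differences were 0.23, 3.12, 0.87 and -0.0045. The 3 genes on chromosome 1 (CYP71B27, CYP71B28 and CYP71B29, AT1G13070 to AT1G13100) had 0.72, -0.17 and 0.61. All 22 probe set names are of the kind without a suffix for shared probes, but such close relatives may still cross-hybridise, which was not tested.

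The other genes of the pathways that P450s serve were hardly named in the annotation used here, in which 8794 probe sets were not listed. Of the lists drawn up for P450 roles, 0 of 39 entries for the oxidation of fatty acids, suberin, cutin and wax were named, as were 0 of 26 for hormones, 0 of 48 for root triterpenes and related families, 0 of 5 for stress and xenobiotics and 0 of 32 P450 genes known by other names. Suberin partners had 0 of 10 named. The lists with an entry above the floor gave no call in any comparison.

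Of 12 entries listed as redox partners, 2 were measured. Whether either passes electrons to the P450s followed here was not tested. AT3G02280, a diflavin reductase, had mean signals of 184 ± 12.8 (SD, n = 3) at 50 kPa, 191 ± 56.0 at 50 kPa/NormOx and 158 ± 65.3 at 97 kPa. AT5G20080, an NADH-cytochrome b5 reductase of mitochondria, had 1401 ± 115, 1182 ± 153 and 1230 ± 193 at 50 kPa, 50 kPa/NormOx and 97 kPa. Neither gene had groups that stood apart.

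Beside CYP71B6 and CYP79A2, 2 of 16 entries of the glucosinolate and indolic list, 1 of 6 partner genes was measured. UGT74B1, the glucosyltransferase of the glucosinolate core, had 1213 ± 332 (SD, n = 3) at 50 kPa, 923 ± 130 at 50 kPa/NormOx and 1377 ± 112 at 97 kPa. Its arrays at 50 kPa/NormOx were all below those at 97 kPa, with a log2 difference of -0.58 ± 0.18 (SE; limma, adjusted p = 0.182). Of 13 phenylpropanoid partners, HCT, an acyltransferase of lignin synthesis, was measured. Its arrays at 50 kPa/NormOx were also all below those at 97 kPa, as were those of 10.3% of tested probe sets. The log2 difference of HCT in that comparison was -0.31 ± 0.13 (limma, adjusted p = 0.340). AT5G47980, an acyltransferase gene of the thalianol cluster and 1 of 5 triterpene partners, had 0.40 ± 0.23 (adjusted p = 0.504). The role lists also hold members. CYP84A4 was 1 of 8 entries for phenylpropanoids, CYP78A9 was 1 of 6 for the CYP78 genes of organ growth, and CYP51G2 and CYP71B31 were 2 of 13 for sterols, carotenoids and monoterpenoids.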

How the data were processed

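Labelled cRNA from roots had been hybridised to ATH1 arrays, and the deposited intensity values were linear MAS5 signals that the authors made with Affymetrix Expression Console (versions not given in the sources used here). Because MAS5 brings every array to a common level, a shift of all transcripts together would not be seen. For its own tests the study normalised by the robust multi-chip average, and those values were not used here. The table had 0 unused sample columns. Samples were grouped by their labelled atmosphere. The 64 control and 130 organelle probe sets were left out (the organelle ones partly from consecutive probe numbers), then the 6785 nuclear probe sets with the lowest mean log2 signal (30%), leaving 15831. Genes were named through the platform annotation, and 13436 of 13513 were matched to the TAIR10.1 gene table. Coordinates and sequences are not given here.

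Log2 signals of all 9 arrays were fitted in limma 3.58.1 (R 4.3.3) with an intensity trend in the prior variance, two-sided tests and Benjamini-Hochberg adjustment over all probe sets fitted. The fit was also run on simulated data with planted changes, drawn for the tested probe sets with independent normal noise of its own fitted spread. Such data hold no outlying array and no probe set under the floor, so that run shows nothing about those. Genes named were those past a threshold, those whose groups did not overlap, the 10 brightest and the list entries. Other genes were named as members after their values had been seen. The members and lists were chosen with earlier results of these data known. Alternatives covered the filter, quantile normalization, an offset of 32, the variance trend, array weights, the 6 arrays of a comparison alone, a replicate block, organelle probe sets and each array left out. The number of arrays limits the precision, and p-values measure the spread between chambers.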

Additional observations from a re-analysis of the deposited data

How the results depend on the processing

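No P450 gene was called under any alternative: 0 calls in 384 fits of a tested gene (lowest adjusted p 0.199) and in 630 fits of a gene under the floor (0.0945). The alternatives that combine the removed filter with another choice were chosen after seeing the data.

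Over all probe sets the number called moved. At 50 kPa against 97 kPa it was 15, with 24 after an offset of 32, 6 without the variance trend, 35 with array weights, 62 with the 6 arrays alone and 8 to 53 with each array left out (53 without 50 kPa/NormOx replicate 2, 25 without its replicate 3, 8 without 50 kPa replicates 1 or 3 or 97 kPa replicate 2). At 50 kPa/NormOx against 97 kPa it was 62, with 0 without the trend, 121 with weights, 103 with the 6 arrays alone and 2 to 96 with each array left out (96 without 50 kPa/NormOx replicate 2, 2 without its replicate 3 or 97 kPa replicate 3, 15 and 11 without 97 kPa replicates 1 and 2). At 50 kPa against 50 kPa/NormOx it was 13, with 4 without the trend and 8 to 94 with each array left out (94 without 50 kPa/NormOx replicate 2, 8 without its replicate 3 or 50 kPa replicate 3).

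Deviations in 9 same-numbered array pairs correlated at -0.051 to 0.114 and in 18 others at -0.125 to 0.118, which cannot exclude weak pairing. With a replicate block, 30 and 28 probe sets were called at 50 kPa against 97 kPa and against 50 kPa/NormOx, and 0 P450 genes.

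P450 genes past the methods' threshold numbered 0 in each comparison. Without the filter there was 1 in each comparison with 97 kPa. With each array left out there were 0 to 1 at 50 kPa against 97 kPa and against 50 kPa/NormOx, the 1 being CYP71B26 without 50 kPa replicate 2. Among all 22 genes fitted without the filter, the counts of 1, 1 and 0 became 2 and 1 without the variance trend at 50 kPa against 97 kPa and against 50 kPa/NormOx, and 2 after the offset at 50 kPa/NormOx against 97 kPa. With each array left out they were 1 to 2 in both comparisons with 97 kPa and 0 to 1 in the third, changing without 50 kPa replicate 2 or 50 kPa/NormOx replicate 2.

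Without the filter, groups did not overlap for 4, 2 and 2 of 22 genes in the 3 comparisons, beside 14.5%, 16.0% and 11.8% of unfiltered probe sets. Tested genes whose groups did not overlap numbered 1, 0 and 1, beside 16.0%, 18.5% and 12.5% of tested probe sets. With each array left out the counts were 1 to 2 (2 without 50 kPa replicate 2 or 97 kPa replicates 1 or 3), 0 to 1 (1 without 50 kPa/NormOx replicate 1) and 1 to 3 (3 without 50 kPa/NormOx replicate 1, 2 without its replicate 2 or 50 kPa replicates 1 or 2). Fewer arrays separate more easily. The median difference of the 8 tested genes at 50 kPa/NormOx against 97 kPa was 0.16, and -0.026 to 0.28 with each array left out (-0.026 without 97 kPa replicate 3, 0.28 without 50 kPa/NormOx replicate 1). Without the filter the median was taken over all 22 genes, a different set, and was -0.037. At 50 kPa against 97 kPa the median of the tested genes, -0.09, was -0.12 without 97 kPa replicate 3 and -0.02 without 97 kPa replicate 1, and at 50 kPa against 50 kPa/NormOx, -0.07, it was -0.16 without 50 kPa/NormOx replicate 2 and -0.02 without 50 kPa replicate 2. Each gene had 1 probe set and updated symbols gave the same 22 genes, so those alternatives changed nothing.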
